A study of Mus musculus with 5 samples.

Results

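The genes described here build the basement membrane: 6 laminin chains (Lama2, Lama4, Lama5, Lamb1, Lamb2, Lamc1), 2 chains of collagen IV (Col4a1, Col4a2), the linker protein nidogen (Nid1) and the heparan sulfate proteoglycan perlecan (Hspg2). They were taken by symbol, and all 10 were found, on 21 of the 45101 probe sets of the array; of these, 0 were annotated to a further gene. The set was chosen by family after the ranges over these same clones, in which Lama5 was among the widest, were known, so its values are given as a description. Clones 1D, 11B, 20B, 30 and 42 of mouse cardiac progenitor cells were each measured on 1 Affymetrix array. They derive from left ventricles of adult animals aged 5 to 6 months, of the strain given as C67BL/6, and were selected for the surface marker Sca-1, cloned and subcloned; the cells are labelled c-kit+, and every group is a single clone. No treatment or engineered allele is given for any clone, and the number of animals behind them is not given in the sources used here.

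A basement membrane is a thin sheet of matrix on which epithelial, endothelial, muscle and fat cells rest. Laminins are trimers of an alpha, a beta and a gamma chain that polymerise on the cell surface, and the alpha chain carries most of the sites that bind integrins and dystroglycan. Collagen IV forms a second, covalently linked network, and nidogen and perlecan connect the networks. In the heart, laminins with the alpha 2 chain surround cardiomyocytes, whereas the alpha 4 and alpha 5 chains are the typical ones of blood vessels.

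The deposited values were ratios: each signal stood relative to the probe set's median clone or, for weak probe sets, relative to a floor. They carry differences between clones and no expression level. A probe set was called measured when the median clone had a ratio of 1 or some clone a ratio above 1, provided that its range, the highest minus the lowest log2 value over the clones, exceeded 0.05. This left 11 of the 21 probe sets and 7 of the 10 genes; across the array 9435 of 18193 named genes were measured. With 1 array per clone nothing could be tested and no value has a replicate check. Differences of at least 1 log2 unit, which is 2-fold, are described, beside the share of all measured genes that reached the same size. As a measure of error served 6681 pairs of measured probe sets of the same gene. They differed with a standard deviation (SD) of 0.42 log2 units, or 0.30 for a single probe set. This SD includes no variation between repeated cultures or RNA preparations of a clone. Flat probe sets, with a range of 0.05 or less, were not among the pairs, so the SD can understate the error. The 18 hybridization control probe sets had an SD of 0.08 log2 units. For Actb the signal at the 5′ end over that at the 3′ end, set to 1 in clone 20B, was lowest in clone 11B at 0.597. Clone 30 was next at 0.743. For Gapdh the same 2 clones were lowest but closer to 1, at 0.893 and 0.966. The part of these differences in the results below was not tested. Each array measured a bulk culture, so fewer cells with a transcript and less of it per cell cannot be told apart.

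Among the 7 measured members, the laminin alpha chains Lama5 and Lama4 had the widest ranges by the mean of their measured probe sets. Lama5 ranged over 4.77 log2 units and Lama4 over 1.58, whereas Hspg2 ranged over 0.68, Lamc1 over 0.57, Lamb1 over 0.25, Lamb2 over 0.15 and Col4a1 over 0.06. Thus 2 of 7 members reached 1 log2 unit, where 13.0% of all measured genes did, and 1 of 7 reached 2 log2 units, where 1.52% did. The count of 2 was 1 without clone 11B, with 9.71% of all genes, and 4 with only the probe set of each gene whose mean ratio was highest, with 16.6% of all genes. Lamc1 and Hspg2 were the additional members there, at 1.17 and 1.09 log2 units. Their means included a further probe set each, ranging over 0.08 and 0.30. The flat probe set 1427010_s_at of Lama5, ranging over 0.03, was left out by the filter. How far Lamc1 and Hspg2 lie below Lama4 thus depends on which probe sets are averaged. The median range was 0.57 log2 units for the members and 0.41 for all measured genes. With so few members these shares say nothing particular about the list.

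**Figure D1:**
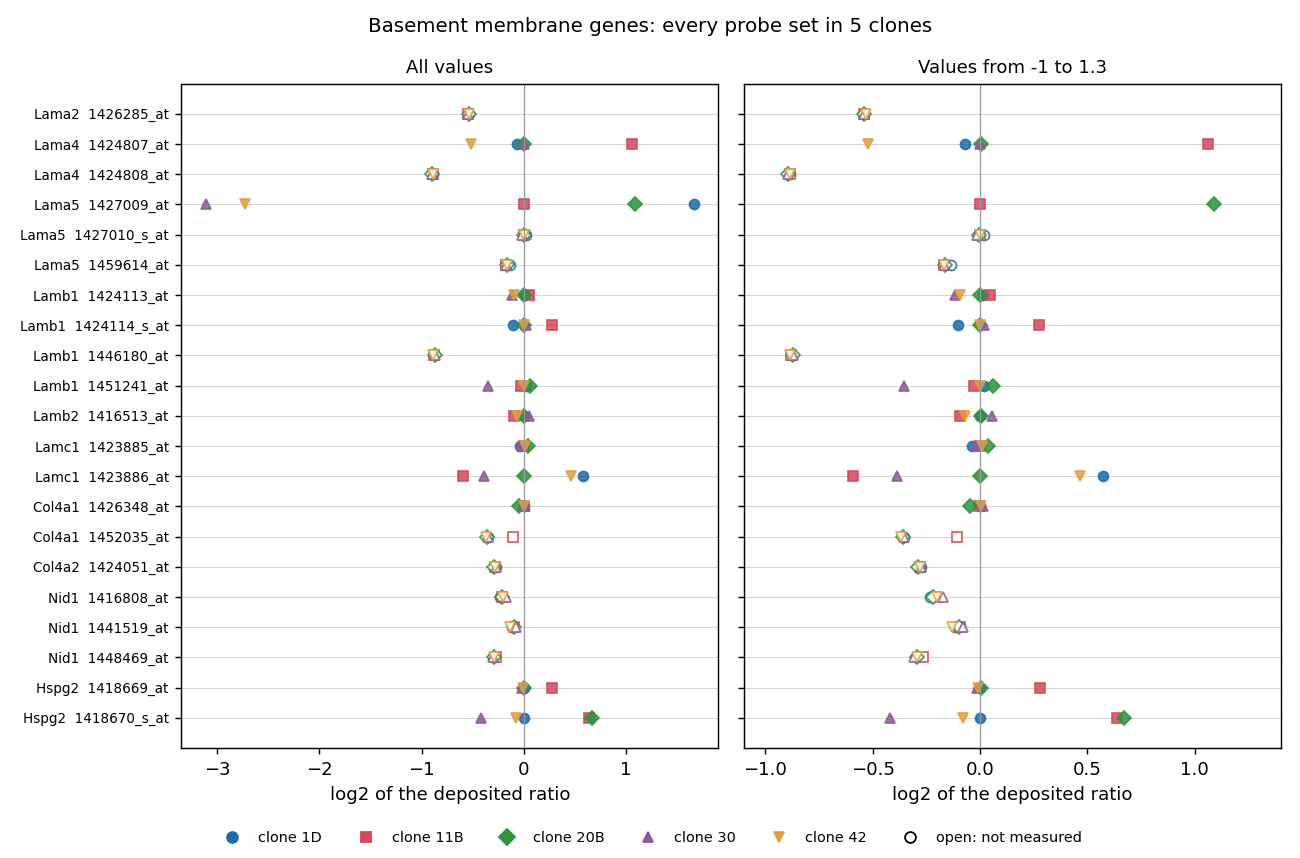
Every probe set of the 10 genes in the 5 clones, as log2 of the deposited ratio (left, all values; right, the values from -1 to 1.3 enlarged). Filled symbols are measured probe sets and open symbols are probe sets that did not exceed the floor or stayed flat; Lama5 probe set 1427009_at spans 4.77 log2 units, and Nid1, Col4a2 and Lama2 have open symbols only.

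The 250 bases before the annotated start of Lama5, the member with the widest range, are shown beside those of Hspg2, the widest member outside the laminins. They are taken from RefSeq on build GRCm38.p6, 5′ to 3′ on the strand of the gene, and 8 of the 10 members had an entry in that table. Capitals mark the letters GGGCGG and the same motif on the other strand, CCGCCC, which is the core of the GC box bound by Sp1-type factors; no marked copy overlaps another. The Lama5 sequence is chr2:180225860-180226109 on the minus strand and the Hspg2 sequence is chr4:137468553-137468802 on the plus strand.
Lama5: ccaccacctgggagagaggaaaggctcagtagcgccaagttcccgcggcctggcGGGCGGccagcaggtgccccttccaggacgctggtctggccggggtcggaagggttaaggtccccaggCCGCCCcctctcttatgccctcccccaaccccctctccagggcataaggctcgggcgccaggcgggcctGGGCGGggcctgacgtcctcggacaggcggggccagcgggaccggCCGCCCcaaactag
Hspg2: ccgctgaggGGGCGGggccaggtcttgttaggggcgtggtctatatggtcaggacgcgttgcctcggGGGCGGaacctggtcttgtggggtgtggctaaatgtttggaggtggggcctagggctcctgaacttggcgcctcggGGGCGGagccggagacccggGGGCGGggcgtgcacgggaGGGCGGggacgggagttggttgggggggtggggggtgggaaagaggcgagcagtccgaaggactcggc
Lama5 held 4 copies of the motif and Hspg2 held 5. Among all 32851 promoter windows of this length, 32.7% held at least 1 copy, and 5 of the 8 members did. The Lama5 window was 72.4% G and C and that of Hspg2 70.0%, where the median window had 52.4%. The motif TATAAA, on either strand, was in none of the 8 windows and in 12.4% of all windows. By these counts the windows of Lama5 and Hspg2 were close to each other; the counts describe letters and not binding.

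Lama5 encodes the alpha 5 chain, which is found in most adult basement membranes and is a strong ligand for integrins with the alpha 3 or alpha 6 subunit. On probe set 1427009_at its ratio was 3.161 in clone 1D, 1.00 in clone 11B, 2.126 in clone 20B, 0.116 in clone 30 and 0.151 in clone 42. Clones 1D and 20B were high, clone 11B lay between, and clones 30 and 42 were low. The signal in clone 1D was 27.2-fold that in clone 30 and 20.9-fold that in clone 42. Clone 11B, the median clone, still had 8.62-fold the signal of clone 30 and 6.62-fold that of clone 42. In descending order the steps were 0.57 log2 units from clone 1D to 20B, 1.09 from 20B to 11B, 2.73 from 11B to 42 and 0.38 from 42 to 30. The step between 42 and 30 was smaller than the SD of 0.42 between probe sets, so these neighbours are not distinguished. The step between 1D and 20B was little larger than this SD, and the other steps were well above it. Variation between repeated cultures of a clone is not in this SD, so it does not settle which clones differ. The range of Lama5 was larger than that of 99.9% of measured genes.

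The remaining probe sets of Lama5 did not show this difference. Probe set 1427010_s_at gave ratios of 1.013, 1.00, 0.998, 0.991 and 1.00 in clones 1D, 11B, 20B, 30 and 42. Its values in clones 11B, 30 and 42 recurred unchanged on 82 other probe sets, so they are a shared level of these arrays rather than a reading of Lama5. Probe set 1459614_at stayed below the floor, between 0.889 and 0.910. The difference in Lama5 therefore rests on a single probe set of 3. Averaging all 3 gave a range of 1.61 log2 units, and adding the flat probe set 1427010_s_at alone gave 2.40. Flat probe sets beside wide ones were common on these arrays. Counted were genes with several probe sets whose median ratio was 1, of which at least 1 ranged over 1 log2 unit or more. Of these 1195 genes, 301 (25.2%) also had a flat one. Among the 11 with a probe set ranging over 4 log2 units or more, 4 did. A flat one may sit at a shared level, so the counts do not show which probe set reads the gene.

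Lama4 encodes the alpha 4 chain, a short laminin alpha chain of vessels, muscle and mesenchymal cells. Its measured probe set, 1424807_at, gave ratios of 0.954 in clone 1D, 2.085 in clone 11B, 1.004 in clone 20B, 1.00 in clone 30 and 0.697 in clone 42. Clone 11B alone was high, at 2.13-fold the median of the other clones, and clone 42 was low, at 0.70-fold. In log2 units clone 11B lay 1.09 above the median of the others and clone 42 lay 0.52 below it, the latter little more than the SD of 0.42 between probe sets. Clones 1D, 20B and 30 lay within 0.07 log2 units of one another and are not distinguished. The excess in clone 11B placed Lama4 with the 0.678% of measured genes that were at least 1 log2 unit above the others there.

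The remaining Lama4 probe set, 1424808_at, stayed below the floor in all clones, with ratios from 0.538 to 0.542. The range of Lama4 was larger than that of 96.7% of measured genes. It became 0.79 with both probe sets averaged and 0.53 without clone 11B, below 1 log2 unit in either case. Lama2, the alpha 2 chain of the muscle basement membrane, had 1 probe set, and it stayed below the floor with ratios from 0.687 to 0.691. A place at the floor does not show that the transcript was absent.

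**Figure D2:**
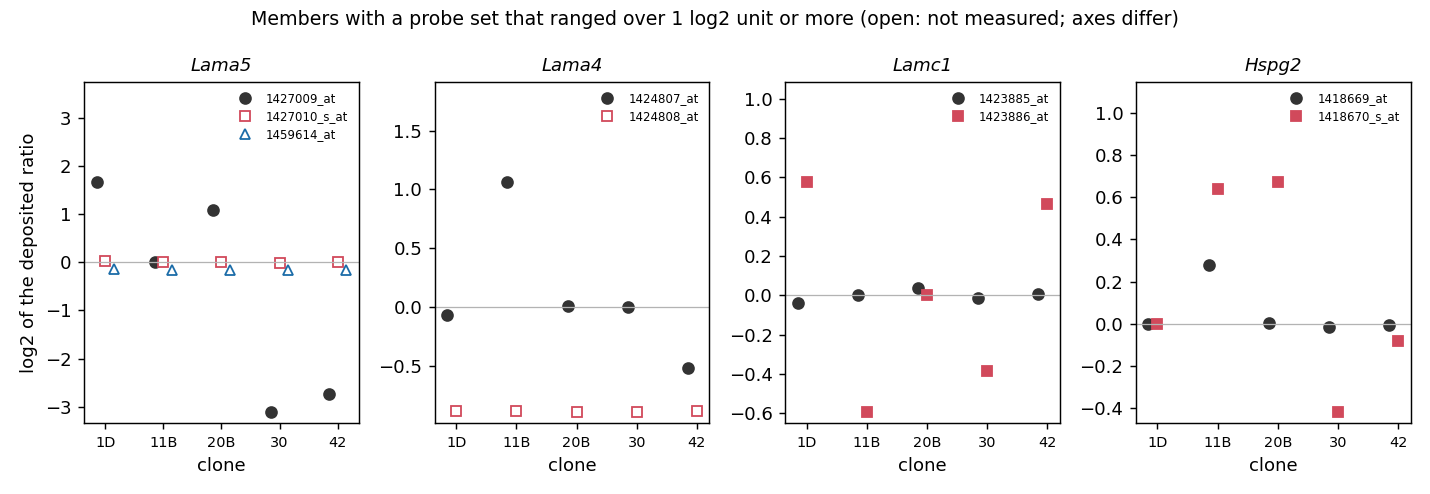
Log2 of the deposited ratio in each clone for the 4 members with a probe set that ranged over 1 log2 unit or more; symbols and colours mark probe sets, open symbols are not measured, and the axes differ. On Lama5 and Lama4 a single probe set carries the difference, on Lamc1 one probe set ranges over 1.17 and the other over 0.08, and on Hspg2 clone 11B is at or near the top on both probe sets.

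The beta and gamma chains, which complete every laminin trimer, differed less by the mean of their measured probe sets. Lamb1, the beta 1 chain, had 3 measured probe sets. On 1424113_at its ratios ran from 0.923 in clone 30 to 1.033 in clone 11B. On 1424114_s_at clone 11B was highest at 1.21 and clone 1D lowest at 0.930. On 1451241_at clone 30 was lowest at 0.783 and clone 20B highest at 1.043. Averaged over the 3, clone 11B lay highest at a log2 value of 0.10 and clone 30 lowest at -0.15, a distance of 0.25 that is below the spread of a single probe set. The fourth probe set, 1446180_at, stayed below the floor at 0.541 to 0.546. Lamb2, the beta 2 chain of synapses, kidney filter and vessel walls, had ratios of 1.00 in clone 1D, 0.937 in clone 11B, 1.002 in clone 20B, 1.038 in clone 30 and 0.952 in clone 42. All 5 values lay within 0.15 log2 units, so no clone stood apart.

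Lamc1, the gamma 1 chain shared by most laminins, differed between its probe sets. On 1423886_at the ratios were 1.49 in clone 1D, 0.663 in clone 11B, 1.00 in clone 20B, 0.766 in clone 30 and 1.379 in clone 42. Clones 1D and 42 were high and clones 11B and 30 low, with a range of 1.17 log2 units. On 1423885_at the ratios lay between 0.974 and 1.027, and those of clones 11B, 30 and 42 recurred unchanged on 614 other probe sets, a shared level that does not measure the gene. Averaged, Lamc1 lay 0.36 log2 units above the other clones in 1D and 0.42 below them in 11B, and the direction of both came from 1423886_at. On that probe set the order of clones matched neither that of Lama5, which was low in clone 42, nor that of Lama4, which was high in clone 11B.

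Collagen IV and nidogen could hardly be followed. Col4a1 and Col4a2, which encode the chains of the most widespread collagen IV trimer, are direct neighbours in RefSeq gene order, with 0 protein-coding genes between them. Col4a1 probe set 1426348_at gave ratios of 1.00, 0.998, 0.967, 1.009 and 1.004 in clones 1D, 11B, 20B, 30 and 42, a range of 0.06 log2 units. Its values in clones 1D, 11B, 30 and 42 recurred on 11 other probe sets, so their closeness is no measurement of Col4a1. On 1452035_at clone 11B was at 0.929 and the other clones between 0.774 and 0.782, all below the floor. Clone 11B was thus 1.19-fold the median of the others there, less than the spread of a single probe set. Col4a2 stayed below the floor on its probe set 1424051_at, at 0.819 to 0.826. Nid1 did so on 3 probe sets, at 0.850 to 0.886, 0.913 to 0.946 and 0.809 to 0.831, and no clone exceeded another by more than 1.04-fold on any of them.

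Hspg2 encodes perlecan, a large proteoglycan that binds growth factors through its heparan sulfate chains. On probe set 1418670_s_at its ratios were 1.00 in clone 1D, 1.558 in clone 11B, 1.592 in clone 20B, 0.748 in clone 30 and 0.946 in clone 42. Clones 11B and 20B were high and clone 30 was lowest, with a range of 1.09 log2 units. On 1418669_at clone 11B was again highest, at 1.214, but the other clones lay between 0.989 and 1.003. The values of clones 1D, 20B and 30 there recurred on 883 other probe sets, so the difference between 20B and 30 could not be seen on it. Averaged over both, Hspg2 lay 0.48 log2 units above the other clones in 11B and 0.36 above them in 20B, and 0.39 below them in 30. The suffix of 1418670_s_at marks possible cross-hybridization; without it the range was 0.30 and the deviation of clone 20B 0.01.

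By clone, each large deviation came from an alpha chain. Lama5 was at least 1 log2 unit above the median of the other clones in 1D and in 20B, where 0.911% and 0.519% of measured genes were, and at least 1 log2 unit below it in 30 and in 42, where 1.69% and 0.986% were. Lama4 was above it in 11B. No member was at least 1 log2 unit below the others in 1D, 11B or 20B (0.318%, 0.806% and 0.180% of measured genes) or above them in 30 or 42 (1.25% and 0.890%). The median deviation of the 7 members was 0.00 in 1D, 0.13 in 11B, 0.04 in 20B, -0.15 in 30 and -0.07 in 42, where the median of all measured genes lay between -0.01 and 0.00.

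In pairs of clones, Lama4 and Lama5 were both at least 1 log2 unit apart between clone 11B and each other clone: 1D (3.29% of measured genes), 20B (1.70%), 30 (4.36%) and 42 (4.28%). Lama4 was the higher in 11B in all 4 pairs, whereas Lama5 was lower in 11B than in 1D and 20B and higher than in 30 and 42. By the mean of the measured probe sets, Lama5 alone was apart between 1D and 30 (4.88%), 1D and 42 (2.56%), 20B and 30 (4.11%), and 20B and 42 (3%). No member was apart between 1D and 20B (1.25%) or between 30 and 42 (4.08%). Single probe sets of Hspg2 and Lamc1 also reached this size, which their means did not. Hspg2 1418670_s_at was 1.09 log2 units higher in 20B than in 30 and 1.06 higher in 11B than in 30. Lamc1 1423886_at was 1.17 higher in 1D than in 11B and 1.06 higher in 42 than in 11B.

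**Figure D3:**
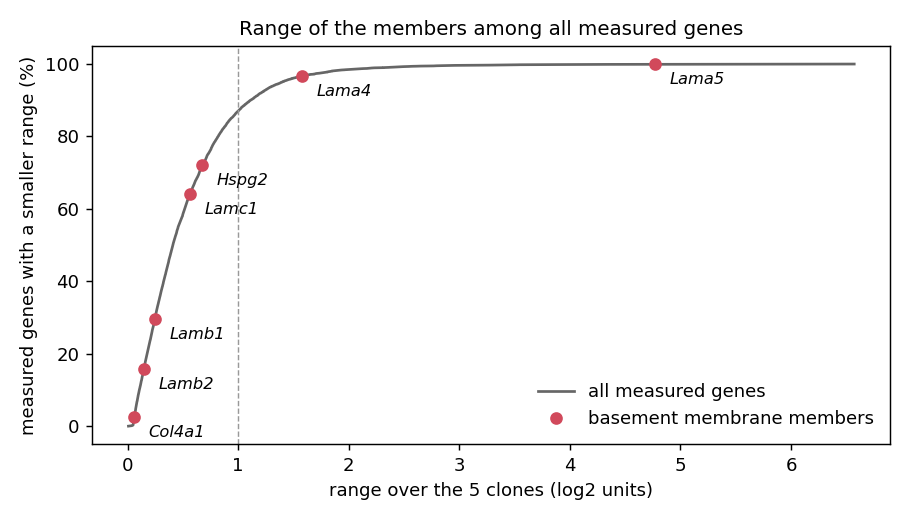
Share of all 9435 measured genes with a smaller range over the 5 clones (vertical, percent) against the range in log2 units (horizontal), with the 7 measured members as points on the curve. The dashed line marks 1 log2 unit; Lama4 at 1.58 and Lama5 at 4.77 lie to its right and the other 5 members to its left.

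The genes whose profile over the 5 clones was closest to a wide member were sought among 1211 other named genes with a range of at least 1 log2 unit, by the root mean square difference of the centred log2 values. For Lama4 these were Mapkapk2 (0.07 log2 units), a kinase downstream of p38, Atp6ap2 (0.08), the prorenin receptor, and Rsu1 (0.10), a protein of integrin adhesions. Each was highest in clone 11B, at log2 values of 0.99, 0.90 and 1.34 against 1.06 for Lama4, and lowest in clone 42. For Lama5 no gene came as close. Nbea, a scaffold of vesicle trafficking, differed by 0.76 log2 units, Cd81, a tetraspanin, by 0.96, and Psma4, a proteasome subunit, by 1.04. Like Lama5 they were low in clones 30 and 42, where Nbea lay at -2.17 and -2.19 and Cd81 at -4.38 and -4.37. With only 5 points such likeness describes these arrays.

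Other genes of the basement membrane were set beside the members from lists chosen with earlier results of these data known. Of 26 other structural genes 8 were measured and 1 of them reached a range of 1 log2 unit, where 13.0% of all measured genes did; the median range of the 8 was 0.44. That gene was Sparc, a matrix glycoprotein that binds collagen IV, which lay 1.23 log2 units below the other clones in clone 42. Its probe sets differed: the log2 value of clone 42 was -2.82 on 1416589_at and -0.54 on 1448392_at. On 1458204_at it was 0.15, the highest of the clones. Lama3, the alpha 3 chain of epithelial laminin, was lowest in clone 1D by its mean, at -0.41 relative to the others. This came from 1427512_a_at, with a log2 value of -0.80 in clone 1D. On 1444860_at clone 1D was at -0.01 and clone 42 lowest at -0.03. Nid2, the second nidogen, was highest in clone 30, at 0.11 above the floor, with the other clones below it, so the size of the difference is not known. Fbln1 and Smoc2 ranged over 0.63 and 0.39. The other 17 on the array, Col4a3, Col4a4, Col4a5, Agrn and Col18a1 among them, could not be followed.

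Of 18 receptors and adhesion genes 15 were measured and 7 reached 1 log2 unit, beside 13.0% of all measured genes, with a median range of 0.89 against 0.41. Itga6, the alpha 6 subunit of laminin-binding integrins, was lowest in clone 30, at -1.46 relative to the other clones, as was Itgb1, the common beta 1 subunit, at -1.14. Itgb1 was highest in clone 42, at 1.07, with clone 1D next at 0.87. The log2 values of these clones, 0.92 and 0.72, lay closer than the SD of 0.42, so they are not distinguished. The 3 measured probe sets of Itgb1 shared this order at the top. Its probe sets 1426919_at and 1426920_x_at were flat, ranging over 0.04 and 0.01, and 1438119_at stayed below the floor. Itga3, a further laminin-binding subunit, was also highest in clone 42, at 1.12. On Itga3 probe set 1455158_at, however, clone 11B was highest at a ratio of 1.187, with clone 42 at 1.00. Itga7, the subunit of muscle, was high in clone 20B at 1.20 on its 1 probe set. Its values in clones 1D, 11B and 42 recurred on 1212 other probe sets. They are a shared level, so the size of the difference is not known. Cd151, a tetraspanin that binds laminin-binding integrins, was lowest in clone 30 at -0.99. On 4 of its 5 measured probe sets the ratios there were 0.442 to 0.534. Lama5, low in both clone 30 and clone 42, thus shared its low side with Itga6, Itgb1 and Cd151 in clone 30, whereas Itgb1 and Itga3 were high in clone 42. Itgb1 was also high in clone 1D, where Lama5 was highest. For Itga6 the difference came from probe set 1422444_at, while 1422445_at ranged over 0.17. Without clone 30, 4 of the 15 reached 1 log2 unit, while the share of all measured genes was 8.18%.

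**Figure D4:**
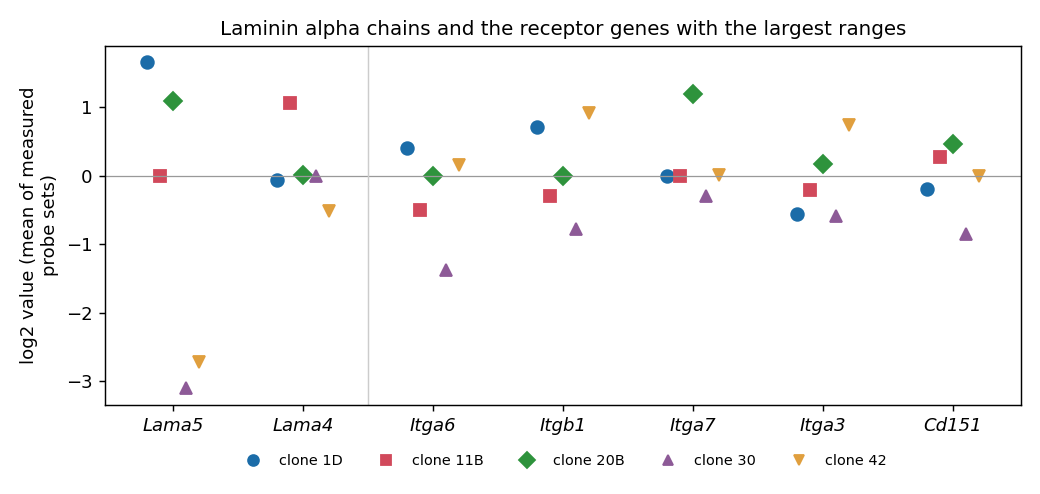
Log2 values (mean of the measured probe sets, vertical axis) in each clone for Lama5 and Lama4 and for the 5 receptor genes with the largest ranges. Clone 30 is lowest for Lama5, Itga6, Itgb1, Itga7, Itga3 and Cd151, and clone 42 is low for Lama5 but highest for Itgb1 and Itga3. For Itga7, clones 1D, 11B and 42 lie at a level shared with 1212 other probe sets.

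Of 18 genes of assembly and processing 15 were measured and 3 reached 1 log2 unit, a share near the 13.0% of all measured genes, with a median range of 0.35. Plod2, a lysyl hydroxylase of collagens, was highest in clone 42, at 1.11 above the others. Timp2, an inhibitor of metalloproteinases, was highest in clone 30, at 1.12, and Mmp14, a membrane-bound collagenase, was highest in clone 42, at 0.86. P4ha2 and P4hb, subunits of the prolyl hydroxylase that collagen chains need, were lower in clone 11B, at -0.52 and -0.49, and P4ha2 was lowest in clone 42, at -0.80.

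Markers of other cell types were read in the same way, since several of them make basement membrane. None of 6 endothelial markers could be followed. Of 6 epithelial markers 3 were measured, and Krt8 was highest in clone 30, at 1.55 above the others. Epcam and Krt18 ranged over 0.11 and 0.08. Their values in 3 clones recurred on 119 and 1212 other probe sets, a shared level that does not measure the genes. The mesothelial markers Upk3b and Msln, the measured ones of 6, were also highest in clone 30, at 0.44 above the floor and 0.82 above the others. The other clones were below the floor for Upk3b, so the size of its difference is not known. Tagln, of 3 measured smooth muscle and pericyte markers of 6, was highest there at 1.83. Acta2 lay only 0.21 above the others in clone 30 and 0.16 in clone 11B. Myh11 ranged over 0.07, with values in 3 clones that recurred on 503 other probe sets. Of 6 fibroblast markers 3 were measured. In clone 42 Col3a1, with 1 of 2 probe sets measured, lay at -6.45 and Col1a1 at -2.17 relative to the others. Pdgfra was highest there by its mean, at 0.99. Its ratios in clone 42 were 1.984 on 1421916_at and 2.211 on 1421917_at. On 1438946_at the ratio was 0.984, and clone 30 was highest at 1.308. The measured cardiomyocyte, leukocyte and Schwann markers, 3, 2 and 3 of 6 each, ranged over at most 0.56. Only 4 of the Schwann markers were on the array. The largest range was that of Myh6, whose measured probe set was above the floor in clone 42 alone, at a ratio of 1.385. The size of that difference is therefore not known. For Actc1 and Cd3e the values of 3 clones recurred on 1212 other probe sets each, so their small ranges say little about these genes. The same holds for Ngfr, with 614 other probe sets, and for the 2 measured probe sets of Sox10, with 1067 and 127. Thus the low Lama5 of clone 30 came with high Krt8, Upk3b, Msln and Tagln. The other measured epithelial and smooth muscle markers ranged over at most 0.26. The low Lama5 of clone 42 came with low Col3a1 and Col1a1 but a high mean of Pdgfra. The part of these markers in the result was not tested. Among the labelled markers Kit ranged over 0.26, with 1 of 2 probe sets measured. Its values in 3 clones recurred on 1067 other probe sets, so the small range says little about Kit. Pou5f1 could not be followed, and Ly6a, which encodes Sca-1, had no probe set of its own by name.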

How the data were processed

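The deposited table gives, per the labels, 1 column per clone. The authors' values are read as a linear ratio per probe set, since the median clone had a ratio of 1 on 18926 probe sets, below 1 on 26175 and above 1 on 0; no header or label states this. Per the submitters' processing notes the tools were RMA and GCRMA; no roles or versions are given. Ratios hold no level, background or detection call, and arrays have no read depth; precision is limited by their number.

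Gene names came from GEO's array annotation, with symbols updated by gene ID (34754 of 34958 with 1 symbol matched RefSeq, GRCm38.p6); 932 with several symbols and 9211 with none were not used. The floor was read as a ratio of 1. The 95th percentile of 86 probe sets of chemosensory receptor genes was 1.00. Since no probe set had a median ratio above 1, flat probe sets give such a percentile by the scaling. It is therefore no check of the floor. A gene's value is the mean log2 ratio over its measured probe sets; the deviation of a clone is its value minus the median of the other 4. Likeness, neighbours and lists were computed in Python 3.11.15 with pandas 2.3.3, and the steps were tested on simulated data. Members and lists were chosen with earlier results of these data known. Genes were named by rule: all members, up to 5 per list by range, and the 3 most similar genes per wide member; the marker genes named were chosen after their values were seen. The alternatives covered how probe sets are combined, their filters, the floor, normalization and leaving out each clone.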

Additional observations from a re-analysis of the deposited data

How the results depend on the processing

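The number of members with a range of at least 1 log2 unit, 2 in the report, was 1 with every probe set averaged (10 members and 18193 genes then count, and 3.74% of all genes reached this range) and 4 with only the probe set whose mean ratio was highest (16.6% of all genes), and between 1 and 2 with each clone left out; the lower value came without clone 11B, which holds the high Lama4. With every probe set averaged no member was at least 1 log2 unit above the others in clones 11B and 20B (0 in each, against 1), because flat and floor-level probe sets enter the mean, and 1 gene of assembly and processing reached 1 log2 unit, against 3. Leaving out each clone gave 4 to 7 receptor genes and 0 to 1 other structural genes, the low ends without clones 30 and 42. The share of all measured genes fell as well, from 13.0% to 8.18% without clone 30 and 9.75% without clone 42. Without clone 11B it was 9.71%. Lama5 kept a range above 1 log2 unit in every alternative tried, from 1.61 to 5.23, the latter with quantile normalization. Every alternative kept probe set 1427009_at, on which the difference rests, so none of them tests that probe set. No paired analysis was possible because each clone has a single array without a replicate number. Only differences between clones on these arrays are covered, not culture or RNA preparation.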

Other observations

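The nearest measured genes on either side of the wide members, 3 on each side in RefSeq order, were looked up after the values of the members had been seen. For Lama5, whose log2 values were -3.11 in clone 30 and -2.73 in clone 42, 0 of the 6 neighbours lay 0.5 log2 units or more below the other clones in either clone, where 6.89% and 3.94% of measured genes did. The closest on one side, Osbpl2, an oxysterol-binding protein, lay 0.58 above the others in clone 30, and the closest on the other side, Slco4a1, an organic anion transporter, lay at -0.04 there. For Lama4, 3 of the 6 neighbours lay 0.5 log2 units or more above the other clones in clone 11B, the clone with high Lama4, where 4.46% of measured genes did. These were Rev3l, a DNA polymerase subunit, at 0.80, Fyn, a Src-family kinase, at 0.78 and Hdac2, a histone deacetylase, at 0.62, while Marcks lay at 0.16, Fam229b at 0.11 and Rfpl4b at 0.00.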
